A study of Mus musculus with 20 samples.

Results

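The pentose phosphate and NRF2 antioxidant genes described here are 10 genes chosen by name: G6pdx, Pgd, Taldo1 and Tkt of the pentose phosphate pathway, and Gclc, Gclm, Txnrd1, Srxn1, Hmox1 and Nqo1, which the transcription factor NRF2 is known to control. Each was followed through the probe sets that carry its symbol alone, and its brightest probe set (the highest mean log2 value over all mice) stood for the gene. This gave 9 of the 10 genes, with 21 probe sets between them, among 18193 genes with such a probe set. G6pdx is not analysed here. Of the 9, 8 exceeded 16 intensity units in at least 5 mice and were tested with 8774 genes in all; Nqo1 stayed under 16 units in every mouse and is given as levels only.

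Liver RNA came from 20 male mice of 50 to 60 days on a mixed BL6/SV129 background, 1 Affymetrix array per mouse. Wild-type mice (Control) and mcad-/- mice, which lack medium-chain acyl-CoA dehydrogenase (MCAD, gene Acadm), an enzyme of mitochondrial fatty acid oxidation, received vehicle or lipopolysaccharide (LPS, a bacterial cell wall component; 100 µg per 20 g body weight). Each genotype thus had a vehicle group and an LPS group, 4 groups of 5 mice in all. All of them, the vehicle groups included, were fasted for 12 h after injection, so no fed liver is part of any comparison, and whether mice of the genotypes shared litters is not given in the labels. The series title places the study in hepatic carbohydrate handling under high metabolic demand; the comparisons below ask how LPS, the genotype and their combination relate to the transcripts of this branch of glucose use and of the antioxidant system it supplies.

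The labels fitted the targeted gene: Acadm lay between 9.03 and 80.2 units in the MCAD-/- vehicle mice against 3106 to 4022 in wild type, and between 14.3 and 218 against 1450 to 2375 with LPS (exact permutation test, two-sided, 252 regroupings, p = 0.00794 for each, the smallest this design allows). Defining hepatocyte transcripts, such as Alb and Apoa1, were above 16 units in every group, with 8 of 8 markers detected, and the 4 cholangiocyte markers with a probe set were under 16 units in all mice. On 2 arrays the actin probe sets had the largest gap between the 3′ and 5′ ends of the transcript, 3.18 on the log2 scale for wild-type vehicle mouse 3 and 3.69 for wild-type LPS mouse 4, against 1.35 to 2.34 on the others. Without those 2 arrays the LPS calls of Pgd, Srxn1, Gclm, Gclc and Hmox1 and the genotype calls of Gclc and Hmox1 with LPS were kept. Array medians were 5.69 to 6.11 units, and 30.3% to 32.4% of probe sets exceeded 16 units on an array.

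The oxidative branch of the pentose phosphate pathway turns glucose 6-phosphate into ribulose 5-phosphate and makes NADPH at its dehydrogenase steps, while transaldolase and transketolase of the non-oxidative branch return the pentoses to glycolysis. NADPH is the electron source for glutathione and thioredoxin reductases, and in liver also for fatty acid synthesis. NRF2 (gene Nfe2l2) is held down by KEAP1, which delivers it to a CUL3 ubiquitin ligase; when KEAP1 is modified by oxidants, NRF2 enters the nucleus, pairs with small MAF proteins and binds antioxidant response elements beside genes such as Gclm, Srxn1 and Nqo1.

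Promoter sequence is shown for Srxn1 and Pgd, which rose with LPS, and Gclm, which fell, the 3 members with the largest wild-type LPS differences among those with a RefSeq window, so that their regions upstream of the start can be read beside the values. The windows searched are those of RefSeq (GRCm38.p6), 250 bases before to 50 after each annotated start, and were available for 8 members with 11 starts; Gclc and Hmox1 had no entry. The 250 bases before the start are printed 5′ to 3′ on the gene's strand, with matches to TGACNNNGC, a form of the antioxidant response element core, or to TGANTCAGC, the form with a complete AP-1-like centre, in capitals; a match on the opposite strand appears as its reverse complement, and a site that fits both motifs counts for each.
Srxn1, chr2:152105274-152105523, plus strand: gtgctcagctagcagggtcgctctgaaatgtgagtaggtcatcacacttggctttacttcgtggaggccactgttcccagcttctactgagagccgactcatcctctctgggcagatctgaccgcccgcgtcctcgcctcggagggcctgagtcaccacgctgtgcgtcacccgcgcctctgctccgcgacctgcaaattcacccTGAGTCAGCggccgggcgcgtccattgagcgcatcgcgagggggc
Gclm, chr3:122245307-122245556, plus strand: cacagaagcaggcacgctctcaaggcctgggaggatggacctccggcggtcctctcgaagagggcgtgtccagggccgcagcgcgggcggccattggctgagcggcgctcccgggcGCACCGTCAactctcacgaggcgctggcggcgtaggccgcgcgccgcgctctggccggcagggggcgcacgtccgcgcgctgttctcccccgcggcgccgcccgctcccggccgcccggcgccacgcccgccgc
Pgd, first start, chr4:149166706-149166955, minus strand: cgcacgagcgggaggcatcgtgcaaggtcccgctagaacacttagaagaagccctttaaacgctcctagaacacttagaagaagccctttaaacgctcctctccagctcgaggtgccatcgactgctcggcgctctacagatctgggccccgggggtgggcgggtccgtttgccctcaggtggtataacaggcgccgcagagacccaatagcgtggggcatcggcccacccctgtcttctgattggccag
The Srxn1 window held TGAGTCAGC 45 bases before the start, and a TGACNNNGC match on the opposite strand (TGACCTAGC) that begins at base 29 of the transcript. The Gclm match lay on the opposite strand, 134 bases before the start, and reads TGACGGTGC there. The first Pgd window held neither motif; a second annotated Pgd start, chr4:149166033-149166332, had TGACATTGC from base 4 of its transcript. Txnrd1 had a match in 1 of its 3 windows, TGACAAAGC on the opposite strand 92 bases before the start. TGACNNNGC was found in 5 of the 11 windows and in 12.4% of all 32851 windows. The 5 belong to Srxn1, Gclm, Pgd, Txnrd1 and G6pdx, 1 each, and G6pdx has no expression values here. TGANTCAGC, which was added after the Srxn1 sequence had been read, was found in 1 of the 11 and in 1.19% of all windows.

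LPS went with a rise of Pgd by about 4-fold in livers of both genotypes. The non-oxidative enzymes did not pass the test in any comparison on their brightest probe sets. Pgd encodes 6-phosphogluconate dehydrogenase, the second NADPH-producing enzyme of the oxidative branch. With vehicle, the 5 wild-type mice had Pgd intensities of 216, 227, 253, 237 and 211 units, and with LPS 811, 719, 1028, 1202 and 903. The MCAD-/- mice had 191, 226, 146, 165 and 236 units with vehicle and 681, 711, 737, 570 and 935 with LPS. In each genotype every LPS mouse was above every vehicle mouse, with a wide gap between the groups. The log2 difference between LPS and vehicle was 2.01 ± 0.15 (SE) in wild type, a 4.02-fold rise (limma, adjusted p = 1.46e-09), and 1.92 ± 0.15 in MCAD-/-, a 3.78-fold rise (adjusted p = 2.33e-09). Throughout, adjusted p-values come from a limma model of the 4 groups over all 8774 genes, with a threshold of 0.05. Liver tissue was measured in bulk, so fewer cells of a type and less RNA per cell cannot be told apart. The LPS differences of Pgd in the genotypes differed by -0.09 ± 0.22 (interaction, adjusted p = 0.862).

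The 3 dimmer Pgd probe sets had LPS differences of 2.11, 2.05 and 1.39 in wild-type mice; the same sets gave 2.27, 2.05 and 1.32 for MCAD-/-. The brightest set, 1436771_x_at, has the ending that Affymetrix gives to sets with probes shared with other transcripts. Between genotypes the brightest set was lower in MCAD-/- by 0.27 ± 0.15 on the log2 scale with vehicle (adjusted p = 0.269) and by 0.35 ± 0.15 with LPS (adjusted p = 0.112), and the groups overlapped. The set 1423706_a_at, the one without that ending, passed the test in both. Its log2 differences were -0.69 with vehicle (adjusted p = 0.00174) and -0.53 with LPS (adjusted p = 0.0116). The mean of the 4 sets passed with LPS (-0.37, adjusted p = 0.0464). All 4 sets had lower values in MCAD-/- in both comparisons, -0.26 to -0.69 with vehicle and -0.28 to -0.53 with LPS.

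Taldo1 (transaldolase) had the smallest fitted difference of the 8 tested members in each comparison. Its intensities were 902, 1039, 729, 987 and 934 units in wild type with vehicle and 948, 1079, 925, 956 and 972 with LPS. In MCAD-/- they were 838, 985, 929, 813 and 998 with vehicle and 865, 981, 884, 972 and 962 with LPS. All 4 groups overlapped, the log2 differences lay between -0.07 and 0.10, each with an SE of 0.10, and adjusted p was 0.403 or more in every comparison between groups.

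Tkt (transketolase) was measured at 1170, 1124, 1136, 1131 and 1132 units in wild type with vehicle and at 813, 918, 868, 1267 and 827 with LPS. In that LPS group 4 mice were below every vehicle mouse, and mouse 4, the array with the largest actin gap, was above them all. The fitted difference was -0.30 ± 0.15 (adjusted p = 0.0799), and it was -0.41 without that mouse (adjusted p = 0.0133). The dimmer set 1451015_at had a log2 difference of -0.46 (adjusted p = 0.00651). In MCAD-/- the values were 1002, 1161, 848, 986 and 1435 units with vehicle and 799, 906, 1142, 876 and 1189 with LPS, which overlapped, with a log2 difference of -0.14 ± 0.15 (adjusted p = 0.412). Genotype differences of Tkt were -0.09 with vehicle and 0.07 with LPS, with adjusted p of 0.743 and 0.789.

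**Figure D1:**
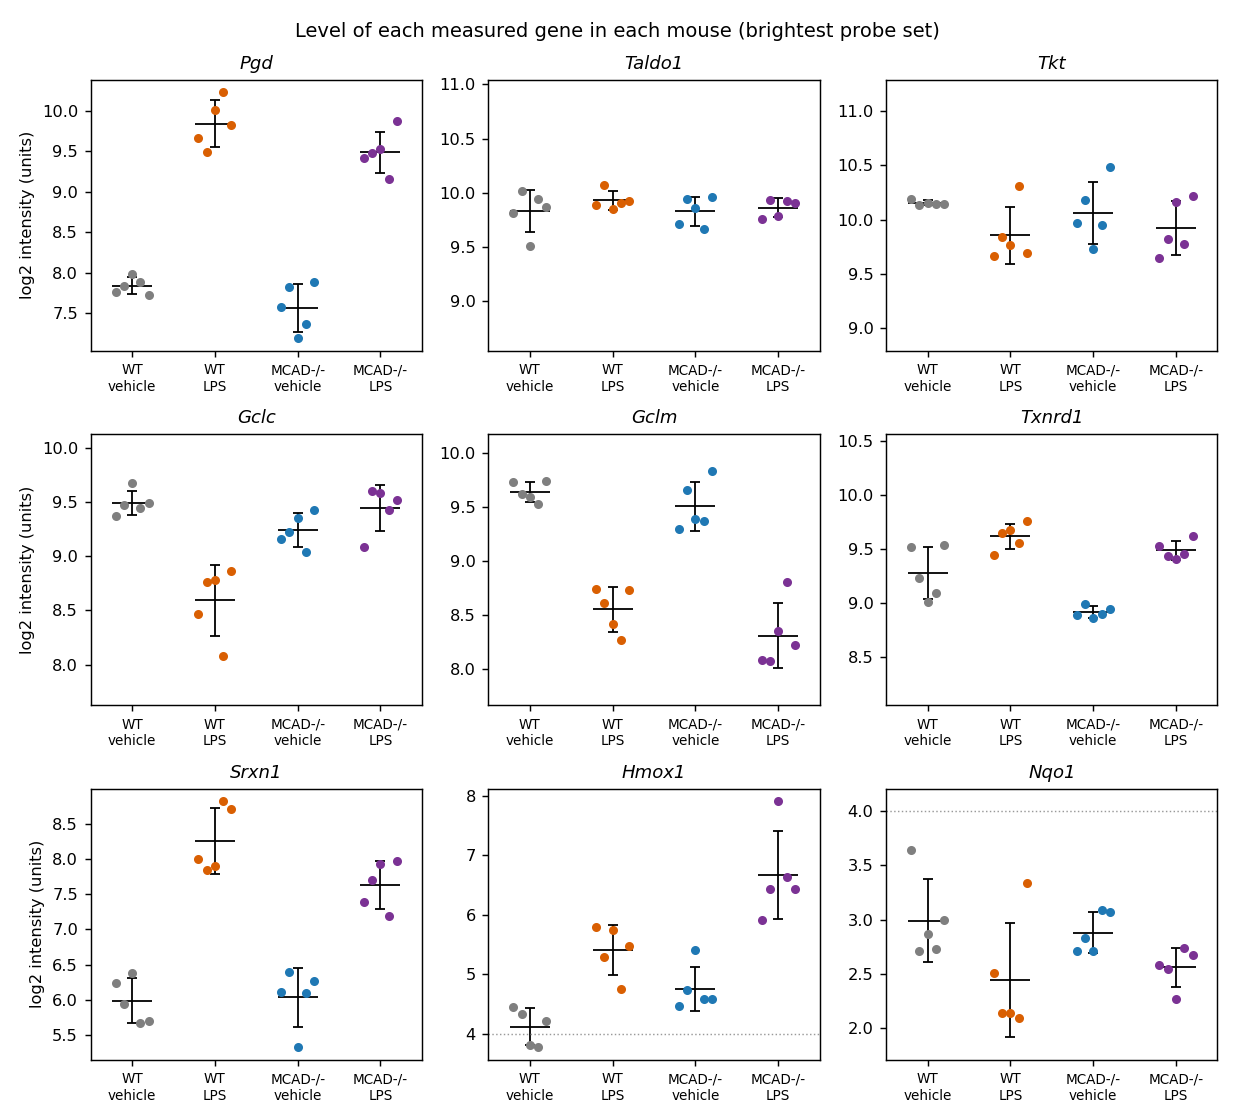
Log2 intensity of the brightest probe set of the 9 measured genes in each of the 20 mice; points are mice, bars the mean and SD of 5 mice, and the dotted line in the Hmox1 and Nqo1 panels marks 16 units. Pgd and Srxn1 are higher with LPS in both genotypes, Gclm is lower with LPS in both, and Gclc is lower with LPS in wild type, where its groups do not overlap, while in MCAD-/- they do.

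Glutamate-cysteine ligase carries out the rate-limiting step of glutathione synthesis and is built from a catalytic subunit, Gclc, and a modifier subunit, Gclm, and the LPS difference of Gclc, unlike that of Gclm, passed the test of a difference between genotypes. Gclm fell with LPS in both genotypes, and Gclc fell in wild type but not measurably in MCAD-/-. Gclc intensities were 662, 709, 818, 698 and 717 units in wild type with vehicle and 355, 435, 440, 270 and 467 with LPS, so every LPS mouse was below every vehicle mouse. The MCAD-/- mice had 572, 598, 655, 526 and 690 units with vehicle and 542, 779, 765, 687 and 734 with LPS, groups that overlapped. The log2 difference between LPS and vehicle was -0.90 ± 0.14 in wild type, a 1.86-fold fall (adjusted p = 1.29e-05), and 0.20 ± 0.14 in MCAD-/- (adjusted p = 0.209). The LPS difference in MCAD-/- exceeded that in wild type by 1.10 ± 0.20 on the log2 scale (interaction, adjusted p = 0.00264).

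With LPS, Gclc was therefore 1.80-fold higher in MCAD-/- than in wild type (log2 difference 0.85 ± 0.14, adjusted p = 0.000182), and the lowest MCAD-/- mouse, at 542 units, was above the highest wild-type mouse, at 467. With vehicle the difference was -0.25 ± 0.14 (adjusted p = 0.248), with overlapping groups. Wild-type LPS mouse 4, of the largest actin gap, had the lowest Gclc value of all. Without that mouse the interaction was 0.97 (adjusted p = 0.00234), and without either of the arrays with the largest gaps it was 0.92 (adjusted p = 0.00394). The dimmer Gclc set, 1455959_s_at, showed an LPS difference of -0.86 in wild type (adjusted p = 6.09e-05) and of -0.01 in MCAD-/- (adjusted p = 0.941), and an interaction of 0.85 (adjusted p = 0.0324).

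Gclm was measured at 847, 786, 772, 735 and 855 units in wild type with vehicle and at 429, 390, 343, 308 and 426 with LPS. MCAD-/- mice had 630, 808, 668, 660 and 907 units with vehicle and 273, 271, 327, 447 and 299 with LPS. In each genotype all 5 LPS mice were below all 5 vehicle mice. The fall was 2.12-fold in wild type (log2 difference -1.08 ± 0.14, adjusted p = 1.33e-06) and 2.29-fold in MCAD-/- (-1.20 ± 0.14, adjusted p = 3.58e-07), and the interaction was -0.11 ± 0.20 (adjusted p = 0.807). The dimmer Gclm set, 1439050_at, had LPS differences of -1.97 and -1.96, with adjusted p of 2.3e-07 and 2.15e-07. Genotype differences on the brightest set were -0.13 ± 0.14 with vehicle (adjusted p = 0.581) and -0.24 ± 0.14 with LPS (adjusted p = 0.232), where leaving out MCAD-/- mouse 4, the brightest of its group, gave -0.37 (adjusted p = 0.0444).

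Within each mouse, the log2 value of Gclc minus that of Gclm on the brightest sets can be followed across groups, although its zero has no meaning because each probe set has its own brightness. It lay between -0.35 and 0.08 in wild type with vehicle, between -0.27 and 0.36 in wild type with LPS, and between -0.43 and -0.03 in MCAD-/- with vehicle. In the MCAD-/- mice with LPS it was 0.99, 1.52, 1.23, 0.62 and 1.29, each above the other 15 mice. The group means were -0.15 ± 0.17, 0.04 ± 0.26, -0.26 ± 0.17 and 1.13 ± 0.34 (SD, n = 5) in that order. The order of single mice depends on the probe sets. With the dimmer Gclm set, whose LPS falls are larger, the value also rose in wild type, from 0.08 ± 0.07 to 1.15 ± 0.50, and the highest wild-type LPS mouse, at 1.66, was above the lowest MCAD-/- LPS mouse, at 1.61. With both dimmer sets the mean went from -0.58 to 0.53 with LPS in wild type and from -0.50 to 1.45 in MCAD-/-.

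**Figure D2:**
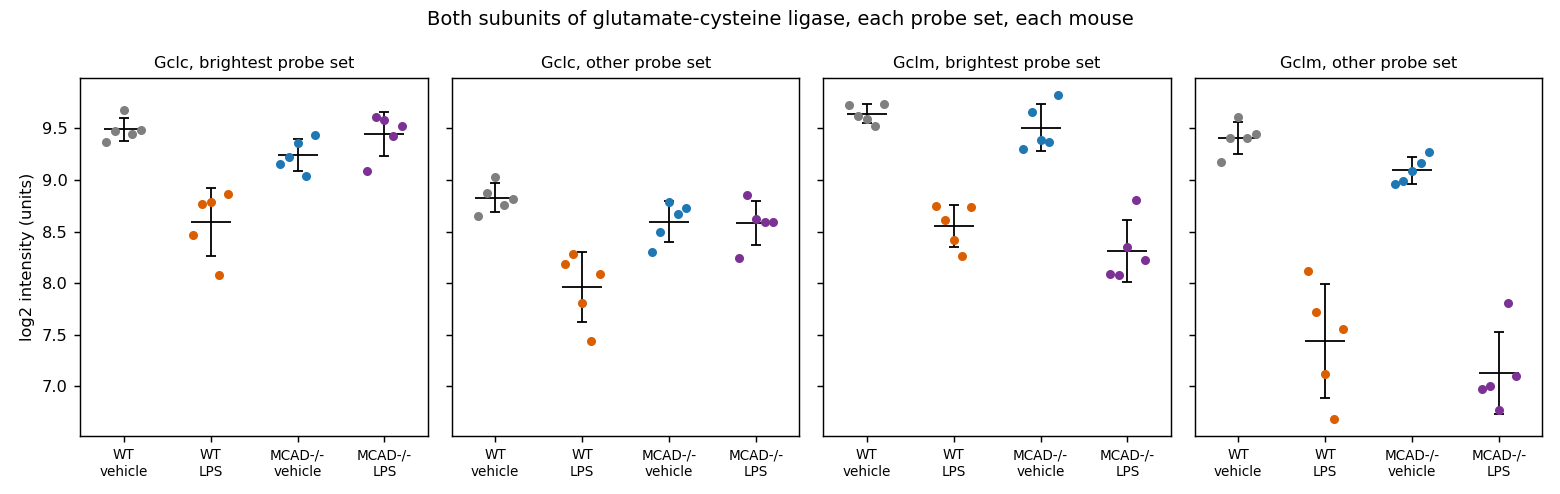
Log2 intensity of both probe sets of Gclc and of Gclm in each mouse, with the mean and SD of 5 mice per group. On both Gclc sets the wild-type LPS mice have the lowest mean of the 4 groups, while on both Gclm sets the LPS groups of either genotype lie below the vehicle groups.

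Of the members that act on protein thiols, Srxn1 rose 3- to 5-fold with LPS and Txnrd1 less than 1.5-fold. Srxn1 encodes sulfiredoxin, which restores peroxiredoxins that peroxide has over-oxidised. Its intensities were 75.7, 61.4, 83.8, 51.0 and 51.8 units in wild type with vehicle and 257, 230, 240, 452 and 419 with LPS. MCAD-/- mice had 68.9, 84.6, 40.1, 68.8 and 77.1 units with vehicle and 168, 207, 245, 146 and 250 with LPS. No LPS mouse of either genotype overlapped the vehicle mice. The rise was 4.82-fold in wild type (log2 difference 2.27 ± 0.23, adjusted p = 6.67e-08) and 3.02-fold in MCAD-/- (1.59 ± 0.23, adjusted p = 5.86e-06). The interaction of -0.68 ± 0.33 did not pass the test (adjusted p = 0.257).

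With LPS, Srxn1 in MCAD-/- differed from wild type by -0.62 ± 0.23 (adjusted p = 0.0623), and 3 of the 5 MCAD-/- mice were below every wild-type mouse. A dimmer set, 1451680_at, passed the test for this difference, at -1.14 (adjusted p = 0.000545), with 48.4 to 81.8 units in wild type and 24.0 to 41.1 in MCAD-/-. The difference on the brightest set was -0.48 without wild-type LPS mouse 4 (adjusted p = 0.158) and also without both arrays of largest actin gap (adjusted p = 0.14). The brightest set passed without wild-type LPS mouse 2 (-0.73, adjusted p = 0.0479) or mouse 3 (-0.71, adjusted p = 0.0465), and on the log2(value + 16) scale (adjusted p = 0.0389). With the probe sets of Srxn1 averaged, which brings in the dimmer sets, the difference passed too (-0.61, adjusted p = 0.00309). With vehicle the set 1451680_at was at 10.2 to 20.3 units in wild type and under 16 units in all MCAD-/- mice. With vehicle the genotypes differed by 0.05 ± 0.23 (adjusted p = 0.915). The remaining Srxn1 sets were under 16 units in all vehicle mice, and no difference was drawn from them.

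Txnrd1 is the cytosolic thioredoxin reductase, the enzyme that returns thioredoxin to its reduced form. It was measured at 732, 602, 515, 546 and 742 units in wild type with vehicle and at 698, 803, 815, 753 and 865 with LPS, groups that overlapped. MCAD-/- mice had 475, 508, 464, 478 and 495 units with vehicle and 738, 694, 677, 700 and 784 with LPS, with no overlap. Txnrd1 rose 1.26-fold in wild type (log2 difference 0.34 ± 0.10, adjusted p = 0.00725) and 1.48-fold in MCAD-/- (0.57 ± 0.10, adjusted p = 7.39e-05), and the interaction was 0.23 ± 0.15 (adjusted p = 0.398). The wild-type rise lost its call when each array was centred on its median (0.18, adjusted p = 0.133).

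With vehicle, Txnrd1 was 1.28-fold lower in MCAD-/- (log2 difference -0.36 ± 0.10, adjusted p = 0.0213), and the highest MCAD-/- mouse, at 508 units, was just below the lowest wild-type mouse, at 515. That call was lost without wild-type mouse 1 (adjusted p = 0.0592) or mouse 5 (adjusted p = 0.0681), the brightest of the group, and with only the vehicle groups in the model (adjusted p = 0.0541). It was also lost, as were both LPS calls, when the probe sets of Txnrd1 were averaged, which brings in a pair of sets under the filter (adjusted p = 0.131 with vehicle, 0.187 for LPS in wild type and 0.185 for LPS in MCAD-/-). With LPS the genotypes differed by -0.13 ± 0.10 (adjusted p = 0.408).

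Hmox1, the inducible haem oxygenase that cleaves haem to biliverdin, iron and carbon monoxide, was a dim transcript that rose with LPS and was highest in MCAD-/- with LPS. It was measured at 21.9, 20.2, 14.1, 13.7 and 18.7 units in wild type with vehicle, so 2 of those mice lay under 16 units, and at 55.8, 39.1, 53.5, 27.0 and 44.3 with LPS. MCAD-/- mice had 22.1, 26.8, 42.4, 24.1 and 24.1 units with vehicle and 60.6, 87.0, 241, 99.6 and 87.1 with LPS. LPS and vehicle mice did not overlap in either genotype, and mouse 3 of the last group, at 241 units, stood far above the rest. The rise was 2.45-fold in wild type (log2 difference 1.29 ± 0.29, adjusted p = 0.000582) and 3.77-fold in MCAD-/- (1.91 ± 0.29, adjusted p = 8.45e-06), with an interaction of 0.62 ± 0.40 (adjusted p = 0.414). Under the other settings the LPS difference lay between 0.81 and 1.46 in wild type and between 1.46 and 2.10 in MCAD-/-. The size of these folds depends on where the dim end of the scale lies.

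With LPS, Hmox1 was 2.40-fold higher in MCAD-/- than in wild type (log2 difference 1.26 ± 0.29, adjusted p = 0.00367), and the groups did not overlap. Mouse 3 also had the highest Acadm value of its group, 218 units. Without it the difference was 0.95 (adjusted p = 0.00654), and without wild-type LPS mouse 4 it was 1.10 (adjusted p = 0.0124). With vehicle the MCAD-/- mice were above the wild-type mice too, though by only 22.1 against 21.9 units at the border, and the difference of 0.64 ± 0.29 did not pass the test (adjusted p = 0.14). Macrophages are a known site of haem oxygenase. Of their 10 tested markers (Clec4f and Vsig4 among them) 6 were higher and 0 lower in MCAD-/- with vehicle, and 0 passed in either direction with LPS. Over all genes 9.81% were higher and 6.39% lower in MCAD-/- with vehicle, and 8.75% and 11.8% with LPS. Between LPS and vehicle 7 fell and 1, Marco, rose in wild type, and 9 fell and 1, again Marco, rose in MCAD-/-. Over all genes 40% rose and 24% fell with LPS in wild type, and 38.1% and 27.6% in MCAD-/-. The summed intensity of the macrophage markers was 1012 to 1839 units in wild type and 1823 to 2540 in MCAD-/- with vehicle, and 527 to 1104 and 612 to 1231 with LPS. Marco was at or under 16 units in all vehicle mice, Cd68 and Timd4 in the wild-type ones, and Vsig4, Timd4 and Cd163 in all LPS mice. Marco, Vsig4 and Cd163 thus passed the filter only through the groups where they were high. The part of macrophages in the Hmox1 result was not tested.

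Nqo1, the quinone reductase often used as a marker of NRF2 activity, was at or below the low end of the scale throughout. Its intensities were 12.4, 6.54, 7.30, 6.61 and 7.99 units in wild type with vehicle and 5.68, 4.40, 4.41, 4.25 and 10.1 with LPS. MCAD-/- mice had 6.56, 7.10, 6.53, 8.51 and 8.38 units with vehicle and 5.97, 5.83, 4.81, 6.66 and 6.36 with LPS. All 20 values were under 16 units, where the values give no order, so no difference was drawn from them.

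Read against all genes, the number of members that passed the test with LPS was close to what the whole array gave. In wild type 6 of the 8 tested members passed, 4 higher (Pgd, Srxn1, Hmox1 and Txnrd1) and 2 lower (Gclm and Gclc), where 64% of the 8774 genes did, 40% higher and 24% lower. In MCAD-/- 5 of the 8 passed, the same 4 higher and Gclm lower, against 65.7% of all genes, 38.1% higher and 27.6% lower. The wild-type and MCAD-/- groups did not overlap between LPS and vehicle for 5 members each, where 46.1% and 51.4% of all genes did not. The median log2 difference of the 8 members was 0.22 in wild type and 0.38 in MCAD-/-, beside 0.18 and 0.14 over all genes. Centring each array on its median took the wild-type median of all genes from 0.18 to 0.02 and the share of calls that were higher from 62.5% to 50.9%; Pgd, Srxn1, Hmox1, Gclc and Gclm kept their calls under it.

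Between genotypes fewer genes passed. With vehicle 1 of 8 members did, Txnrd1, where 16.2% of all genes did (9.81% higher, 6.39% lower), and with LPS 2 of 8 did, Gclc and Hmox1, both higher, where 20.6% did (8.75% higher, 11.8% lower). Member medians were -0.11 and -0.10, beside 0.04 and -0.03 over all genes. The interaction passed for 1 of 8, Gclc, against 4.11% of all genes (1.36% higher, 2.76% lower), and the share of higher calls among all genes moved from 33.0% to 44.4% when arrays were centred on their medians. The 2 genotype comparisons share no mice, but each shares groups with the LPS comparisons.

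**Figure D3:**
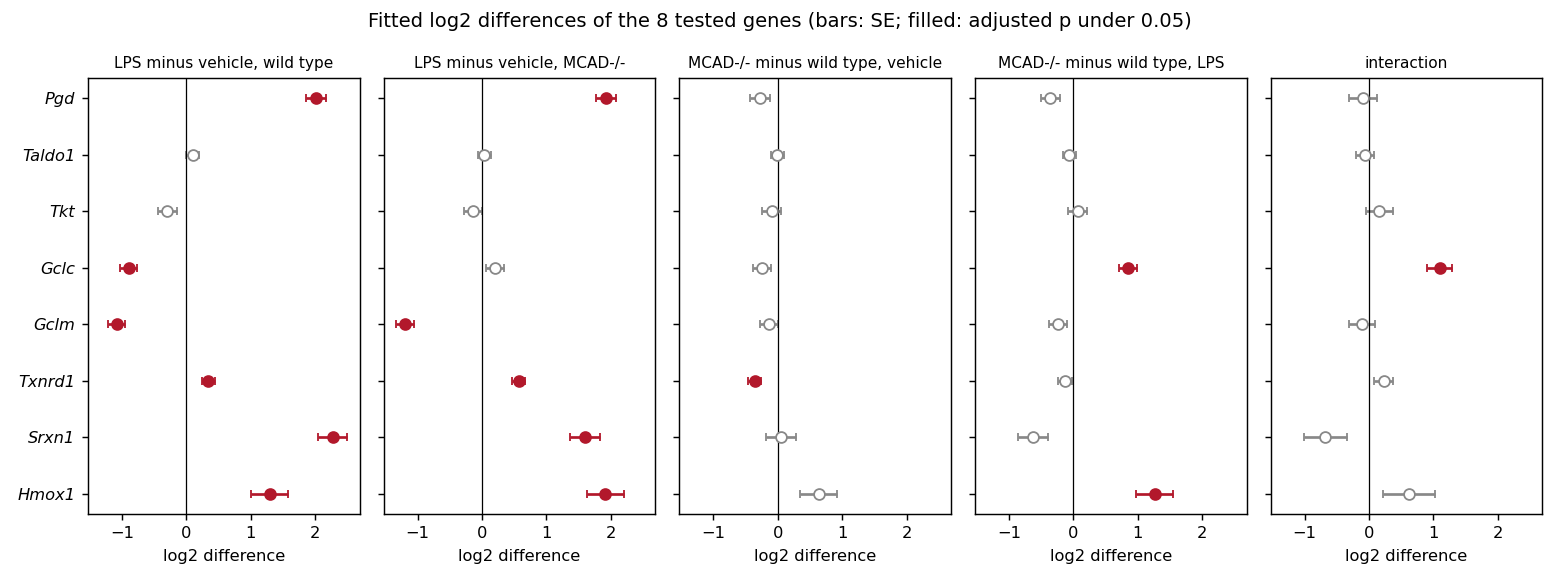
Fitted log2 differences of the 8 tested genes in the 5 comparisons, with SE bars; filled points passed an adjusted p of 0.05. Pgd and Srxn1 lie far to the right in both LPS panels, Gclm to the left in both, and Gclc alone is filled in the interaction panel, at 1.10.

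Among the tested regulators of NRF2, transcript differences with LPS were largest for Keap1 in both genotypes. Of 9 named regulators 8 were tested (Maff did not pass the filter). With LPS 3 rose and 1 fell in wild type, and 3 rose and 2 fell in MCAD-/-. Beside these counts and those of the lists below, 40% of all genes rose and 24% fell in wild type. In MCAD-/- 38.1% rose and 27.6% fell. Keap1, the repressor, rose by 0.77 ± 0.14 in wild type (adjusted p = 7.06e-05) and 0.81 ± 0.14 in MCAD-/- (adjusted p = 3.67e-05), from medians of 139 and 150 units to 228 and 266; its second probe set passed in MCAD-/- (1.02, adjusted p = 0.0332) and not in wild type (0.67, adjusted p = 0.156). Mafg, a small MAF partner of NRF2, fell in MCAD-/- (-0.80 ± 0.13, adjusted p = 2.71e-05), with -0.30 in wild type (adjusted p = 0.0567).

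Nfe2l2, which encodes NRF2 itself, had a median of 340 units (317 to 382) in wild type with vehicle and 410 (331 to 457) with LPS, and of 247 (227 to 337) and 334 (259 to 396) in MCAD-/-. It was lower in MCAD-/- with vehicle by 0.39 ± 0.13 (adjusted p = 0.0372) and rose with LPS in MCAD-/- by 0.32 ± 0.13 (adjusted p = 0.0297), calls that were each lost under 8 of 21 other settings (adjusted p up to 0.293 and 0.112); in wild type its LPS difference was 0.21 (adjusted p = 0.15). Cul3 fell by 0.26 ± 0.10 in each genotype (adjusted p = 0.0207 and 0.0213), calls lost under 3 and 5 of 21 settings, and averaging its probe sets turned the MCAD-/- direction, to 0.13. Mafk passed as higher with LPS (adjusted p = 0.0365 and 0.025, lost under 13 and 6 of 20 settings), but its group medians were 12.2 to 17.4 units, about the 16-unit limit, and no fold is given. Sqstm1 rose in wild type (0.38, adjusted p = 0.0197), lost under 3 of 21. Bach1 and Nfe2l1 did not pass in any comparison, and no regulator passed the genotype test with LPS or the interaction.

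Among 10 tested other genes of the pentose phosphate pathway and its borders, 2 rose and 1 fell with LPS in wild type, and 3 rose and 2 fell in MCAD-/-. H6pd, the hexose-6-phosphate dehydrogenase of the endoplasmic reticulum, rose by 0.74 ± 0.15 in wild type (adjusted p = 0.000303) and by 1.21 ± 0.15 in MCAD-/- (adjusted p = 1.04e-06). Its medians went from 1169 to 2089 units in wild type and from 1295 to 3168 in MCAD-/-, and with LPS it was higher in MCAD-/- (0.61 ± 0.15, adjusted p = 0.00776). Pgm2, of the phosphoglucomutase family and counted among those that rose, was under 16 units in all vehicle mice. With LPS it was at 21.8 to 45.5 units in wild type and 32.7 to 54.1 in MCAD-/-. It passed the filter only through the LPS groups, where it was high, so its call is not read as a test. No fold is given, since the vehicle level is only a bound. Shpk, the sedoheptulose kinase, fell by 1.51 ± 0.15 on the log2 scale in wild type (adjusted p = 3.82e-08) and by 0.87 ± 0.15 in MCAD-/- (adjusted p = 3.55e-05).

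Pgls encodes 6-phosphogluconolactonase, the step between G6pdx and Pgd, and differed between genotypes in opposite directions with and without LPS. Its median was 203 units (196 to 229) in wild type with vehicle, 239 (213 to 330) in wild type with LPS, 260 (236 to 309) in MCAD-/- with vehicle and 195 (163 to 206) in MCAD-/- with LPS. The LPS difference was -0.50 in MCAD-/- (adjusted p = 0.000873), and the interaction was -0.74 ± 0.16 (adjusted p = 0.0138). With LPS, MCAD-/- was lower by 0.39 ± 0.12 (adjusted p = 0.0209, up to 0.0711 in the 4 of 21 other settings that lost the call, among them the fits without wild-type LPS mouse 4 or MCAD-/- LPS mouse 5). With vehicle it was higher by 0.35 ± 0.12 (adjusted p = 0.0467, up to 0.118 in the 12 of 21 that lost it). Rbks (ribokinase) was higher in MCAD-/- with vehicle (0.61 ± 0.14, adjusted p = 0.00552) and with LPS (0.53 ± 0.14, adjusted p = 0.0124), and Shpk was lower with vehicle (-0.71 ± 0.15, adjusted p = 0.0022).

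Most of the genes listed as other sources of NADPH, which leave out H6pd and include Nadk, the kinase that makes NADP, fell with LPS. Of 7 tested, 6 fell and 0 rose in each genotype, with medians of -0.999 in wild type and -1.02 in MCAD-/-. Mthfd1, the cytosolic trifunctional folate enzyme, fell by 2.09 ± 0.14 on the log2 scale in wild type (adjusted p = 2.11e-10) and by 1.64 ± 0.14 in MCAD-/- (adjusted p = 5.68e-09), from medians of 786 and 704 units to 169 and 212. Idh2, the mitochondrial NADP-dependent isocitrate dehydrogenase, fell by 1.62 and 1.57 (adjusted p = 2.98e-07 and 4.08e-07). Me1, malic enzyme, was lower in MCAD-/- with vehicle (-0.95 ± 0.24, adjusted p = 0.00957). With LPS, Idh1 (-0.64, adjusted p = 0.0119) and Nadk (-0.42, adjusted p = 0.0163) were lower in MCAD-/-, Idh2 was higher (0.55, adjusted p = 0.041), and these calls were lost under 1, 4 and 14 of 21 other settings.

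Glutathione genes were mixed: of 10 tested, 3 rose and 4 fell with LPS in each genotype. Gpx3, the secreted glutathione peroxidase, went from 8.19 to 17.3 units in wild type with vehicle to 90.0 to 240 with LPS, and from 10.9 to 21.3 to 72.0 to 335 in MCAD-/-; the log2 differences of 3.49 and 3.14 (adjusted p = 2.35e-08 and 8.9e-08) depend on where the dim end of the scale lies. Glo1, the first glyoxalase, was lower in MCAD-/- by 1.24 ± 0.10 on the log2 scale with vehicle (adjusted p = 1.28e-08) and by 1.21 ± 0.10 with LPS (adjusted p = 1.78e-08), from a wild-type vehicle median of 5228 units to 2261; its 4 probe sets passed in both. Hagh, the second glyoxalase, fell with LPS by 1.37 and 1.86 on the log2 scale (adjusted p = 3.1e-06 and 5.53e-08).

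Thioredoxin and peroxiredoxin genes mostly fell with LPS: of 9 tested, 7 fell and 1 rose in each genotype, the latter Txn1, the cytosolic thioredoxin that Txnrd1 reduces, by 0.67 ± 0.08 in wild type and 0.82 ± 0.08 in MCAD-/- (adjusted p = 7.59e-07 and 4.26e-08). Prdx4, the peroxiredoxin of the endoplasmic reticulum, fell by 0.70 and 0.78 on the log2 scale (adjusted p = 1.14e-06 and 2.29e-07). Of 17 other NRF2 target genes 8 fell and 1 rose in wild type, and 14 fell and 1 rose in MCAD-/-, with median log2 differences of -0.79 and -1.23; 0 passed the interaction test. Abcc2, the canalicular exporter of glutathione conjugates, fell by 1.14 ± 0.12 and 1.58 ± 0.12 on the log2 scale (adjusted p = 1.6e-07 and 1.48e-09). The carbonyl reductase Cbr1 fell by 1.70 and 2.13 (adjusted p = 3.66e-06 and 1.89e-07). With LPS 7 of the 17 were lower in MCAD-/- and 0 higher, among them Ephx1 (-0.88 ± 0.17, adjusted p = 0.000958), Osgin1 (-1.47 ± 0.30, adjusted p = 0.00135) and Aox1 (-1.32 ± 0.27, adjusted p = 0.00147), while with vehicle 0 passed in either direction. Over all genes 11.8% were lower and 8.75% higher in MCAD-/- with LPS.

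Of the enzymes that remove superoxide and peroxide, the mitochondrial Sod2 rose by 1.30 ± 0.09 and 1.37 ± 0.09 (adjusted p = 1.97e-10 and 7.97e-11), and Cat (catalase) fell by 1.09 and 1.08 on the log2 scale (adjusted p = 1.35e-06 and 1.42e-06). Downstream of Hmox1, the biliverdin reductase Blvra rose by 0.88 and 0.84 (adjusted p = 0.000135 and 0.000204) and Blvrb fell by 1.17 and 1.52 (adjusted p = 8.98e-06 and 3.18e-07). Hmox2, the constitutive haem oxygenase, had LPS differences of -0.05 and 0.01 (adjusted p = 0.598 and 0.885).

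**Figure D4:**
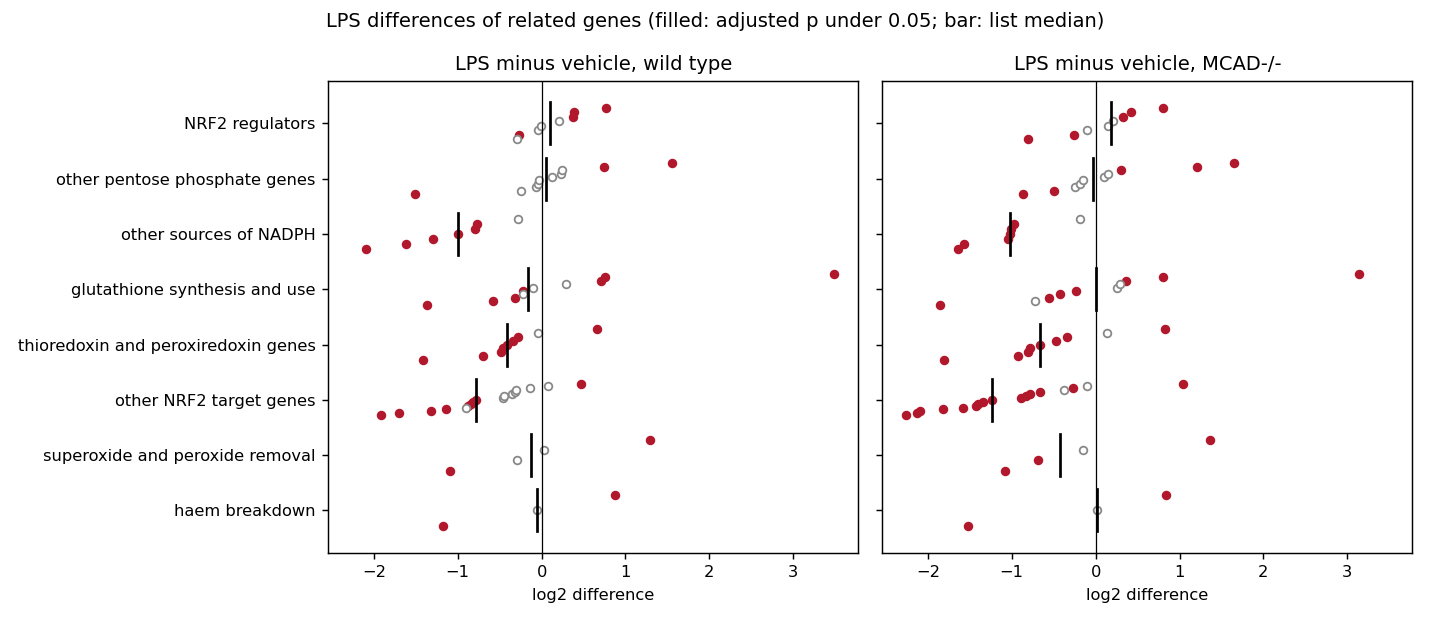
Log2 differences between LPS and vehicle of the tested genes in 8 related lists, wild type on the left and MCAD-/- on the right; each point is a gene, filled where adjusted p was under 0.05, and the bar is the list's median. The other sources of NADPH and the other NRF2 targets have medians of -0.999 and -0.79 in wild type; in MCAD-/- they are -1.02 and -1.23.

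Markers of several cell types moved with the same contrasts. With LPS 6 of 8 hepatocyte markers fell in each genotype, their summed intensity going from 94475 to 100679 units to 75663 to 81845 in wild type and from 92575 to 103625 to 77697 to 82460 in MCAD-/-. Both tested neutrophil markers, S100a8 and S100a9, rose. The summed intensity of the 6 neutrophil markers with a probe set went from 37.2 to 110 and 34.6 to 206 units to 1814 to 3833 and 2635 to 3125. Mpo, Elane, Csf3r and Cxcr2 were at or under 16 units in every mouse. With vehicle the median sums were only 46.1 units in wild type and 44.2 in MCAD-/-, near the dim end of the scale. The rises of S100a8 and S100a9 are therefore not read as tests. Of the 9 tested endothelial markers 5 rose and 1 fell with LPS in wild type, and 2 rose and 5 fell in MCAD-/-. Cdh5, counted among those that rose in both, was at or under 16 units in all wild-type vehicle mice. Its calls against that group are therefore not read as tests. For the 6 tested stellate cell markers 2 rose and 2 fell in wild type, and 0 rose and 4 fell in MCAD-/-. Angptl6, counted among those that fell in both, was at or under 16 units in all LPS mice. It passed the filter only through the vehicle groups, where it was high, so its LPS calls are not read as tests. Macrophage markers mostly fell with LPS, as given with Hmox1. Between genotypes with vehicle 8 of 9 endothelial and 4 of 6 stellate cell markers were higher in MCAD-/- and 0 lower. Over all genes 9.81% were higher and 6.39% lower in that comparison. In the interaction 5 endothelial and 2 stellate cell markers were lower and 0 higher, where 2.76% of all genes were lower and 1.36% higher. Angptl6, counted among these stellate cell markers, lost the call under 8 of 29 settings, and its call is not read as a test. Endothelial sums were 495 to 970 units in wild type and 1410 to 1923 in MCAD-/- with vehicle, and 771 to 1321 and 596 to 1079 with LPS. Stellate sums were 1069 to 1856 and 1932 to 2233 with vehicle, and 697 to 2065 and 1771 to 2216 with LPS. Their part in the members' results was not tested.

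The tested genes whose profiles over the 20 arrays lay closest to each member, by the root mean square difference of log2 values centred on the gene's mean, were Abhd17c (0.21), Tnpo1 (0.22) and Nedd4 (0.24) for Gclc, and Slc38a3 (0.16), Il1rap (0.17) and Haao (0.18) for Gclm. For Srxn1 the nearest gene was Pgd (0.29), then Ano10 (0.35) and Nos3 (0.36), both dim. For Pgd they were the dim Slc7a6 (0.27), Psmb10 (0.28) and Eppk1 (0.28), and for Txnrd1 Osbp (0.13), Mt2 (0.15) and Surf4 (0.15). For Hmox1 they were the dim Mcm3 (0.45), Rcn2 (0.46) and Mfap3 (0.47).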

How the data were processed

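Values are intensities on a linear scale, 1 array per mouse, made with GCRMA (background correction, normalization between arrays and probe summary) per the submitters' processing notes and as deposited by the authors; no version is given in the sources read here. Differences are therefore relative to the whole array. Values were taken to log2 with no pseudocount; since GCRMA compresses low values, folds near 16 units depend on its lower end. Of 45101 probe sets, 34945 had 1 gene symbol, 932 several (not named), 9160 were unlisted and 64 were controls (left out). By gene ID, 34741 matched RefSeq (GRCm38.p6), and 0 symbols changed. The brightest probe set per gene was used; genes above 16 units on at least 5 arrays were tested.

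One model of the 4 groups was fitted with limma 3.58.1 in R 4.3.3 (lmFit, eBayes; two-sided; Benjamini-Hochberg over 8774 genes; threshold 0.05), and again over probe sets for the probe-set values. The script was tested on simulated data. Groups came from the labels; the series text calls the mice biological replicates, and 0 of 190 array pairs were identical. Members, lists and tests were chosen with earlier results of these data known. List genes named are regulators, and among the 3 of smallest adjusted p per list and comparison. Number-sharing mice were not paired (30 pairs, 7 with a correlation of deviations over 0.1, median 0.02). Alternatives covered filter, pseudocount, scaling, probe sets, prior, weights, groups fitted, block and each mouse left out; the fit without the arrays of largest actin gap was added after the data were seen. The number of mice limits the precision.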

Additional observations from a re-analysis of the deposited data

Results flagged for a closer look

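The LPS difference of Gclc in MCAD-/- minus that in wild type was 1.10 on the log2 scale, a difference between the genotypes that passed its own test. The same test passed for Pgls, at -0.74.

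Among 36 sets of 5 mice (9 genes in 4 groups), 3 held a mouse far from the others by Dixon's criterion, where chance gives about 1 in 20. These were Tkt in wild type with vehicle, with a highest value of 1170 units, Tkt in wild type with LPS, with a highest value of 1267 units, and Srxn1 in MCAD-/- with vehicle, with a lowest value of 40.1 units.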

How the results depend on the processing

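Of 947 recomputed member differences, 898 kept direction and side of the threshold, 7 lost and 17 gained the call, and 25 changed sign; the calls of Pgd, Srxn1, Hmox1, Gclm and Gclc kept both under all settings that tested them. Members called between genotypes with vehicle (1) were 0 with probe sets averaged, 2 with array weights and 0 to 1 without 1 mouse; with LPS (2) they were 1 with a filter at 64 units, 4 with probe sets averaged and 2 to 3 without 1 mouse. Array weights gave 2855 genes called with vehicle and 879 for the interaction, and the 64-unit filter, which tests fewer genes, 236. Sign changes were as follows. With probe sets averaged they were Srxn1 with vehicle (-0.077) and, for the interaction, Pgd (0.0023) and Txnrd1 (-0.00065). With arrays centred on their median they were the LPS differences of Taldo1 (-0.057 in each genotype) and its interaction (0.00074), which was 0.056 with array weights and 0.012 without the arrays of largest actin gap. With another probe set they were Srxn1 with vehicle (-0.37), Gclc with LPS in MCAD-/- (-0.014) and the interactions of Pgd (0.17) and Gclm (0.0081). Cul3 with LPS in MCAD-/-, called at -0.26, was 0.13 with probe sets averaged. Without 1 mouse, genotype differences with vehicle ranged from -0.037 to 0.23 for Srxn1 and from -0.084 to 0.044 for Taldo1, that of Tkt with LPS from -0.0047 to 0.18, the LPS difference of Taldo1 in MCAD-/- from -0.0058 to 0.068, and interactions from -0.18 to 0.0103 for Pgd and -0.11 to 0.0188 for Taldo1. The cause was not tested. With the replicate number as a block, the members called were 1, 2, 6, 5 and 1 and all genes called 1397, 1845, 5619, 5796 and 384 (vehicle, LPS, LPS in wild type, LPS in MCAD-/-, interaction); 6 of 20 arrays correlated best with their own number.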

Other observations

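Among the 8 tested members, wild-type LPS mouse 4 had the highest value of its group in 3 (Pgd, Srxn1 and Tkt) and the lowest in 3 (Gclc, Gclm and Hmox1). MCAD-/- vehicle mouse 5 had the highest value of its group in 5 members and mouse 3 the lowest in 4. In MCAD-/- with LPS, mouse 5 had the highest value in 4 members and mouse 1 the lowest in 4. How often these mice were the extremes over all genes was not computed, so the counts show nothing particular to the members.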
